A study of Homo sapiens with 4 samples.

Results

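To set the 2 drugs of the study against each other, the library treated with neobractatin (NBT) alone was compared with the library treated with trametinib alone. Genes with at least 50 estimated counts in the NBT or the trametinib library were kept, which left 11246 of the 16834 genes in the table. Of these, 371 (3.30%) were at least 2-fold higher with NBT than with trametinib and 548 (4.87%) were at least 2-fold lower, 8.17% in all. A further rule picked the genes that the drugs moved in opposite directions, by at least 1.5-fold from the control library each, and found 199 genes. NBT was the higher and trametinib the lower side in 49 of them (0.436% of the tested genes), and NBT was the lower side in the other 150 (1.33%). The combination library was not used in either rule.

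The series holds RNA-seq of cells labelled as the pancreatic cancer line MIA PaCa-2, with 1 library for each of 4 conditions. They were a control with neither drug, NBT at 1 µM, trametinib at 5 µM, and both drugs together at these doses, each for 12 h. Whether the control received solvent is not stated. All are labelled wild type. The doses of the drugs differ, so each comparison is of NBT at 1 µM with trametinib at 5 µM and says nothing of equal doses. With 1 library per condition, no value has a replicate check and no test was made. Intervals are exact at the 95% level (Clopper-Pearson) and reflect the counting of reads alone. Reads stand for estimated counts below, and fold changes are log2 ratios after scaling to the library sums, which ranged from 18776212 to 19614763.

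Trametinib inhibits MEK, the kinase that activates ERK in the mitogen-activated protein kinase (MAPK) pathway. Active ERK switches on genes for transcription factors of the ETS and AP-1 families, for growth factors, and for phosphatases and Sprouty proteins that damp the pathway in return. NBT is a natural compound from Garcinia bracteata.

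The markers of the cell line were checked before the drugs were compared, and CDKN2A and MTAP went against the label. CDKN2A and MTAP are neighbouring genes known to be deleted in MIA PaCa-2 cells. CDKN2A had 2643 reads in the control, 2674 under NBT, 3524 under trametinib and 3187 under both. MTAP, named after its values were seen, had 1148, 1151, 840 and 815 reads in the same order. The epithelial genes EPCAM (3113 to 3502 reads), CDH1 (2539 to 4086) and KRT8 (26811 to 63594) were well expressed in all libraries, while VIM, a mesenchymal gene, had 202 to 500 reads. KRT5 and TP63 of basal epithelium, named after their values were seen and described further below, had 24906 and 1565 reads in the control. The cell line entry of the labels also differs between all 4 libraries: it runs from MIA PaCa-2 to MIA PaCa-5, with MIA PaCa-3 for NBT and MIA PaCa-4 for trametinib. Whether the 4 libraries come from the same line, and from which, was not tested, and a difference between cultures and an effect of a drug cannot be told apart. Of 8 markers of other cells in the table, 5 stayed under 50 reads in every library. PTPRC of leukocytes had at most 17 reads, PECAM1 and CDH5 of endothelium at most 26 and 2, and PDGFRB and COL1A2 of fibroblasts at most 2. CD68, a lysosomal protein of macrophages, had 1503 to 2400 reads. The T cell gene CD3E had 0 reads in the control and under NBT, 55 under trametinib and 29 under both. COL1A1, a fibroblast collagen, had 45, 27, 98 and 53 reads and is itself one of the opposite genes. The part of other cells in the results was not tested.

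The contrast was set more often by trametinib than by NBT. At least 1.5-fold from control, NBT had 4.94% of the tested genes higher and 4.13% lower, and trametinib had 9.05% higher and 5.71% lower. Of the 371 genes higher with NBT, 200 (53.9%) were moved 1.5-fold from control by trametinib alone, 91 (24.5%) by NBT alone, and 49 by both in opposite directions. In 24 genes both drugs moved the gene the same way to unequal extents, and in 7 neither passed 1.5-fold. Among the 548 genes lower with NBT, trametinib alone moved 278 (50.7%), NBT alone 88 (16.1%), and both in opposite directions 150 (27.4%), with 18 moved the same way and 14 by neither. The median log2 ratio of NBT over trametinib over all tested genes was -0.04. Both single-drug ratios are taken over the same control library, so an error in that library enters both with the same sign.

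**Figure D1:**
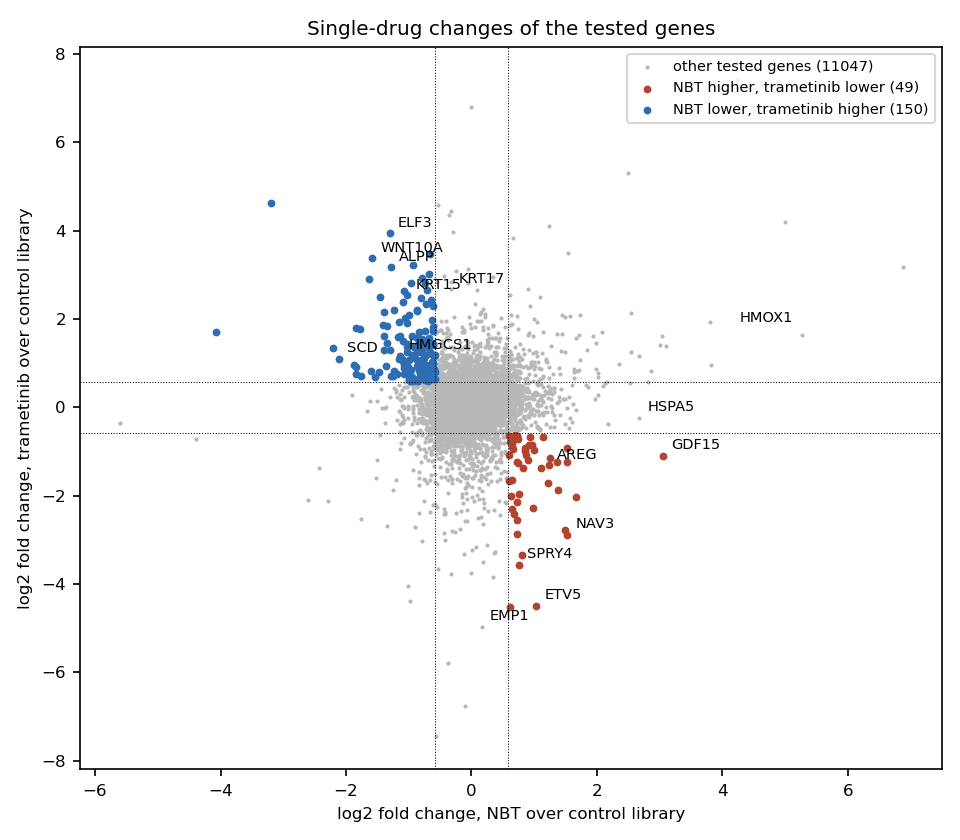
Each point is 1 of the 11246 tested genes, with its log2 fold change over the control library in the NBT library (x axis) and in the trametinib library (y axis). Dotted lines mark 1.5-fold. The 49 genes at the lower right and the 150 at the upper left are the opposite genes, while EMP1 lies almost straight below the origin and HSPA5 almost straight to its right.

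The highest median of the 32 pathway lists was that of the output genes of the MAPK pathway. All 18 tested genes of a list of such genes were at least 2-fold higher with NBT than with trametinib, with a median log2 ratio of 2.88. For this and the later lists, the shares of all tested genes to set beside are 3.30% higher and 4.87% lower. Over control, the list had medians of 0.13 under NBT, -2.95 under trametinib and -2.50 under both. The median level fell from 58.2 CPM (counts scaled to equal library size) in the control and 45.9 with NBT to 9.71 with trametinib and 9.23 with both drugs. The combination lay nearer the trametinib than the NBT value in 17 of the 18 genes, against 39.6% of all tested genes. The exception was UPP1, the uridine phosphorylase, with 2441 reads in the control, 5571 under NBT, 2196 under trametinib and 7368 under both.

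Of these 18 genes, 4 belonged to the opposite genes, so that NBT raised what trametinib lowered. ETV5 (gene ID 2119), an ETS transcription factor, had 367 reads in the control, 777 under NBT, 16 under trametinib and 23 under both. Its log2 ratio of NBT over trametinib, 5.52 (interval 4.86 to 6.38), was the highest of all genes with at least 200 reads in the higher library. DUSP6 (gene ID 1848), the phosphatase that inactivates ERK, had 329, 521, 14 and 9 reads in the same order. The Sprouty gene SPRY4 had 169, 295, 14 and 16 reads, and DUSP5, a nuclear ERK phosphatase, had 401, 689, 55 and 134. In all 4 genes the combination stood nearer the trametinib library than the NBT library: its log2 ratio to NBT was -5.06 for ETV5, -5.79 for DUSP6, -4.17 for SPRY4 and -2.37 for DUSP5. In several other genes NBT lay near the control while trametinib was far below it. EMP1, an epithelial membrane protein named for its extreme ratio, had 3946, 4570, 127 and 334 reads. The list members PHLDA1, IER3 and FOSL1, the last an AP-1 subunit, had 4113, 5448, 420 and 662 reads, 4587, 5422, 410 and 1214 reads, and 11889, 12386, 1268 and 4000 reads. TMEM63A, a mechanosensitive ion channel, and SH3TC2 stood out by their ratios alone, with 247, 254, 18 and 39, and 306, 404, 21 and 55 reads. The log2 ratio of SH3TC2 was 4.20, and 3.12 with deposited TPM values. CCND1, which encodes cyclin D1, went a different way, since both drugs lowered it: 8472 reads in the control became 4693 with NBT, 1315 with trametinib and 323 with both. DUSP4 was likewise lower with each drug, at 1175, 620, 56 and 98 reads. SPRED3, a Spred family member outside the list that was picked as an opposite gene, had 118, 244, 61 and 89 reads.

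The ligands of the EGF receptor family sat on the same side, but the combination split them. Of 5 tested ligand genes, 4 were at least 2-fold higher with NBT than with trametinib (median 1.62), and 2 of these were opposite genes. AREG (gene ID 374), which encodes amphiregulin, had 692 reads in the control, 1680 under NBT, 281 under trametinib and 1463 under both. HBEGF (gene ID 1839), the heparin-binding ligand, had 147, 395, 40 and 101 reads. Thus AREG with both drugs was near its NBT level, at a log2 change from NBT of -0.21 and from trametinib of 2.33. HBEGF with both drugs was below control by a log2 change of -0.60 (interval -0.98 to -0.23). TGFA had 1462, 1544, 490 and 456 reads, so NBT alone left it near control and the combination was as low as trametinib.

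The AREG promoter is shown because AREG is an opposite gene whose promoter window held an exact cyclic AMP response element (CRE), TGACGTCA, on either strand. The element, printed in capitals, starts 65 bases before the transcription start. The window of 300 bases, from RefSeq on build GRCh38.p14, is chr4:74444886-74445185 on the plus strand.
AREG: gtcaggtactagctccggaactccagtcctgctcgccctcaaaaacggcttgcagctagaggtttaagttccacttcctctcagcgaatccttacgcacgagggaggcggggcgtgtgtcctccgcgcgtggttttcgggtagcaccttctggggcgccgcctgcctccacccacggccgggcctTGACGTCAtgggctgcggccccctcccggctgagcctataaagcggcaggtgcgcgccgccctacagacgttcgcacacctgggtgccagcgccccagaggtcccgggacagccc
This element was found in the windows of 2.25% of all 27305 genes with a promoter window, of 3.94% of the tested genes with one, and of 2 of the 36 (5.56%) among the 49 opposite genes with NBT as the higher side. Its presence carries no statement about which factor acts there.

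Several of the other named genes that NBT raised and trametinib lowered encode secreted or surface proteins. GDF15 (gene ID 9518), a stress-induced cytokine, had 100 reads in the control, 862 under NBT, 47 under trametinib and 1047 under both. VEGFA, the vascular growth factor, had 898, 1736, 394 and 1215 reads. IL1A, which encodes interleukin 1 alpha, had 373, 904, 114 and 236. GDF15 with both drugs thus passed its NBT level, VEGFA came to rest 0.37 above control on the log2 scale, and IL1A ended below control at -0.72. THBD, the thrombomodulin gene, had 113, 253, 44 and 104 reads. MMP1, an interstitial collagenase, had 34, 102, 18 and 21 reads, few enough that its interval for trametinib over control ran from -1.84 to -0.07. PLAUR, the urokinase receptor gene, had 1726, 2622, 389 and 1404 reads; its rise with NBT was just short of 1.5-fold.

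Genes of the cytoskeleton, of signalling and of other functions completed the named members on this side. NAV3, a microtubule-binding protein, had 149 reads in the control, 444 under NBT, 20 under trametinib and 132 under both. LAT2, an adaptor protein, had 175, 574, 43 and 150. FUT3, a fucosyltransferase that builds Lewis antigens, had 159, 464, 23 and 215. In these 3 genes the NBT and trametinib values lay more than 10-fold apart (log2 ratios 4.40, 3.69 and 4.27), and the combination was within 1.5-fold of control. DNER, a transmembrane Notch ligand, had 253, 517, 52 and 268 reads, which placed the combination 0.02 from control on the log2 scale. PALM2AKAP2 had 52, 139, 22 and 45 reads. ARHGEF2, a microtubule-associated activator of RHOA, differed from them: with 1301, 3887, 556 and 3055 reads, its combination value was 1.17 above control and close to NBT.

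**Figure D2:**
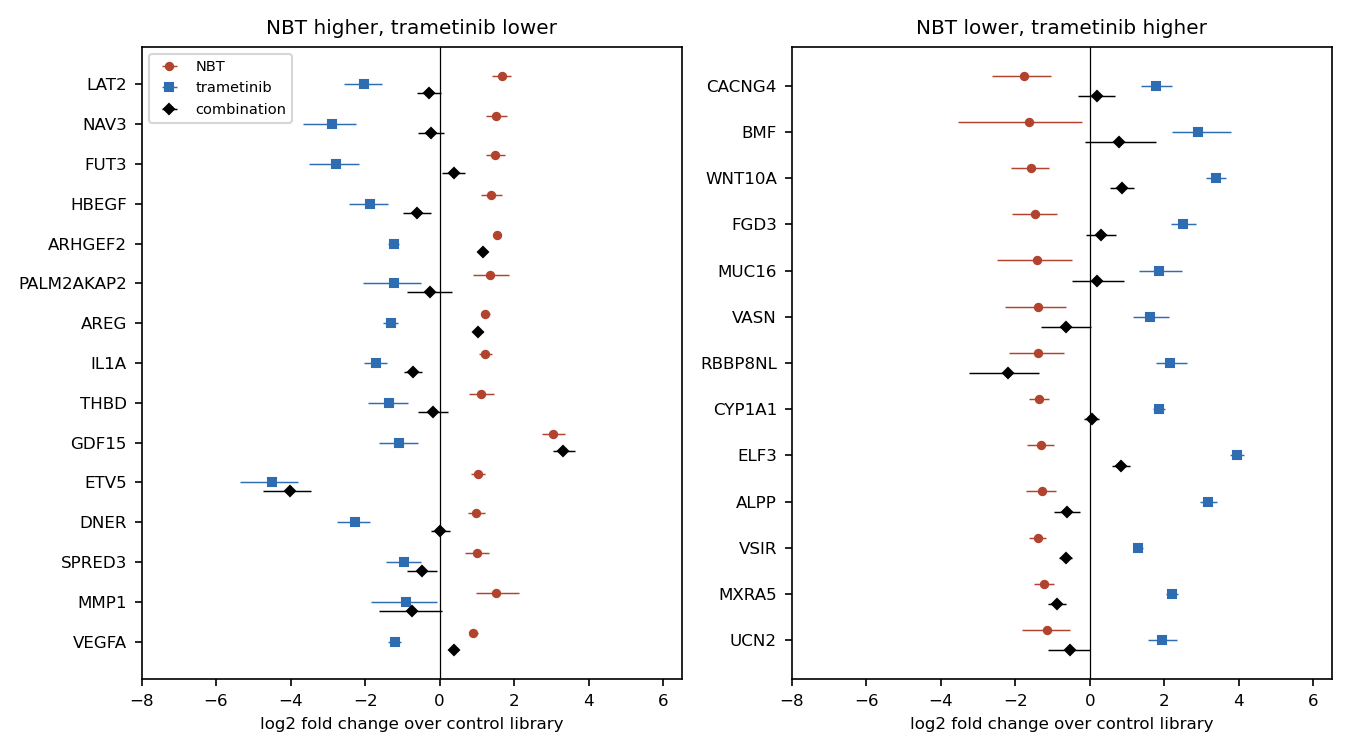
Log2 fold change over the control library (x axis) of the named opposite genes (y axis) in the NBT, trametinib and combination libraries, with bars for 95% counting intervals. The combination lies beside NBT in GDF15 (3.32 against 3.05), beside trametinib in ETV5 (-4.03 against -4.49), and near 0 in DNER (0.02) and CYP1A1 (0.06). CCN5, with 0 reads in the NBT library, is not drawn.

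The IL1A promoter is shown because its window held several exact matches to elements of stress and AP-1 factors. An AP-1 element, TGACTCA, starts at 105 and again at 55 bases before the start (the latter on the other strand), and an antioxidant response element, TGACNNNGC, at 169 bases before it, all in capitals. The window is chr2:112784351-112784650 on the minus strand of GRCh38.p14, from RefSeq.
IL1A: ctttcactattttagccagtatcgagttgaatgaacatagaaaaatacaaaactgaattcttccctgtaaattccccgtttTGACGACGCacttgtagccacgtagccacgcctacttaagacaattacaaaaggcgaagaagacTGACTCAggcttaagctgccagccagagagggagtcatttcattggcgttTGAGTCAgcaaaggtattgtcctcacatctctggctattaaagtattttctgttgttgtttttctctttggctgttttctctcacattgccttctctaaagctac
Another IL1A window, from a different start, held the same matches, with AP-1 at -12 and 39 and the antioxidant element at -76. AP-1 matches were found in 6.05% of all 27305 genes with a promoter window and antioxidant element matches in 16.1%. Among the tested genes with a window the shares were 4.76% and 19.4%. The antioxidant share was also 19.4% in the opposite genes with NBT as the higher side. The 9-letter antioxidant pattern can overlap an AP-1 or CRE match.

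Genes of the unfolded protein response and targets of ATF4 were among those higher with NBT, and the combination lay nearer the NBT value in all but 1 of the tested genes of these lists. Of 16 tested genes of the unfolded protein response, which refolds or removes proteins in the endoplasmic reticulum, 9 were at least 2-fold higher with NBT than with trametinib and none was lower (median 1.17). All 16 had ratios above 0, and in all 16 the combination lay nearer the NBT value, against 60.4% of all tested genes. HSPA5 (gene ID 3309), the main chaperone of the reticulum, had 9310 reads in the control, 61352 under NBT, 8012 under trametinib and 76120 under both. HERPUD1, a degradation factor, had 908, 6615, 1364 and 9808 reads, and the co-chaperone gene DNAJB9 had 162, 756, 125 and 1349. Trametinib alone thus left this list near control, at a median of -0.10, while NBT was at 1.17 and the combination at 1.39. None of the 16 was an opposite gene.

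Of 20 tested targets of ATF4, the transcription factor of the integrated stress response, 12 were higher with NBT and 1 was lower (median 1.21). PPP1R15A, which returns translation to normal after stress, was opposite, with 4977, 11332, 3171 and 14461 reads, and so was GDF15. SESN2, a stress-induced inhibitor of mTORC1, had 267, 2015, 476 and 2981 reads, and DDIT3, a transcription factor tied to cell death, had 196, 1298, 443 and 2589. SESN2 and DDIT3 were above control with each drug, more with NBT and most with both. The single ATF4 target that was lower with NBT was SLC3A2, the heavy chain of several amino acid transporters, with 16603 reads in the control, 7047 under NBT, 27310 under trametinib and 9655 under both. SLC3A2 was the only opposite gene of this list in which NBT was the lower side.

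Of 16 NRF2 targets, genes of the antioxidant response, 5 were higher with NBT and none lower (median 0.57). HMOX1, which encodes heme oxygenase 1, had 121, 4825, 382 and 44631 reads, a log2 ratio of 3.62 between the drugs. GCLM, of glutathione synthesis, had 1245, 4658, 1730 and 7423. In contrast, NQO1, a quinone reductase on the same list, had nearly the same level with either drug, 7541 reads with NBT and 7267 with trametinib (log2 ratio 0.02, interval -0.03 to 0.06). ABCC2, an export pump, was the NRF2 target among the opposite genes, with 82, 134, 43 and 150 reads.

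The lowest median of the 32 lists was that of cholesterol synthesis. Of 21 tested genes, 13 were at least 2-fold lower with NBT than with trametinib, against 4.87% of all tested genes. None was 2-fold higher, and all 21 had ratios below 0 (median -1.48). Of these genes, 8 were opposite genes with NBT as the lower side, against 1.33% of all tested genes. HMGCS1 (gene ID 3157), an enzyme early in the mevalonate pathway, had 1435 reads in the control, 676 under NBT, 3263 under trametinib and 950 under both. INSIG1, which retains the SREBP transcription factors in the endoplasmic reticulum, had 1025, 295, 1951 and 396 reads. LSS, which closes the sterol rings, had 1277, 619, 2656 and 749. Each of these 3 genes was lowest with NBT, highest with trametinib, and below control with both. The other opposite members were STARD4, IDI1, MVK, MSMO1 and MVD, with log2 ratios of NBT over trametinib from -2.07 (STARD4) to -1.51 (MVD). In all 21 genes the combination lay nearer the NBT than the trametinib value, against 60.4% of all tested genes. The median level was 68.0 CPM in the control and 139 under trametinib, but 40.0 under NBT and 40.6 under both.

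**Figure D3:**
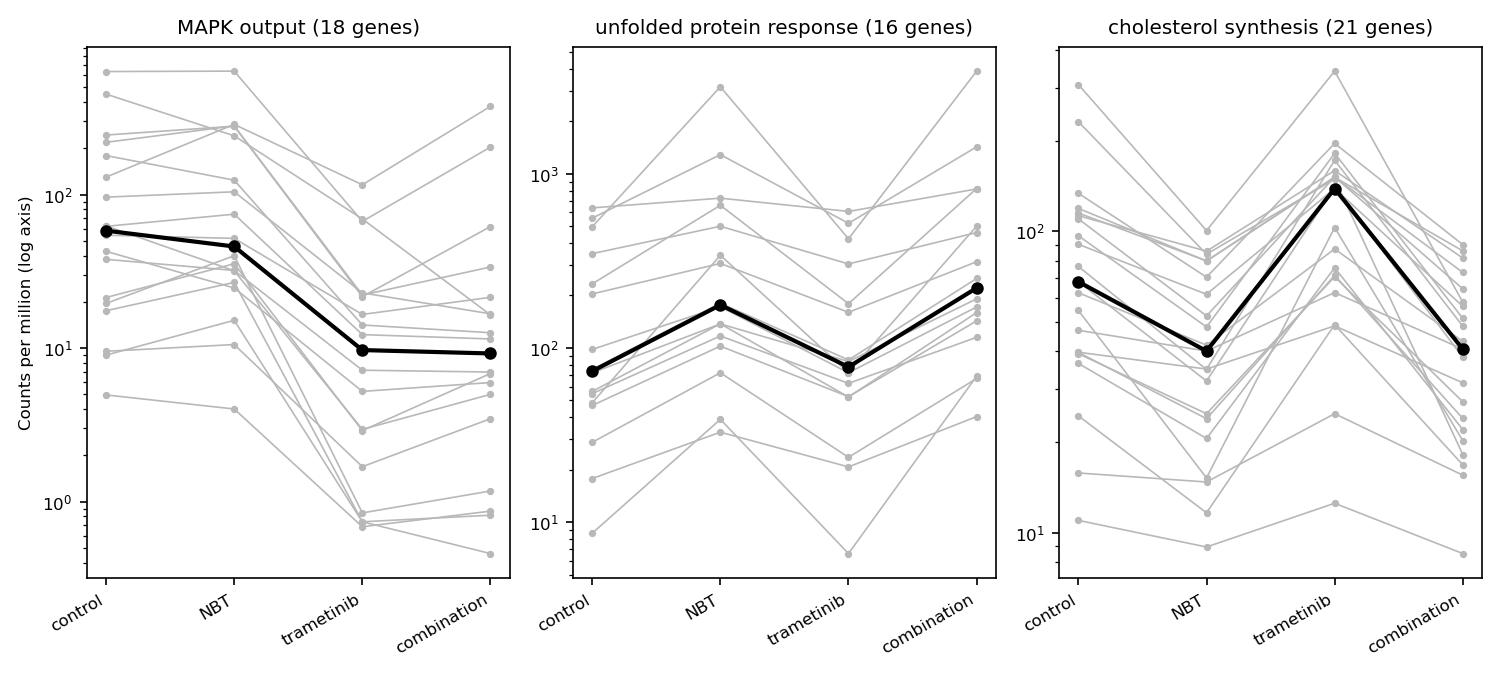
CPM (log y axis) in the 4 libraries for each gene of 3 lists, as grey lines, with the list median in black. The MAPK median with both drugs (9.23) sits at the trametinib level (9.71), whereas the medians of the unfolded protein response (221) and of cholesterol synthesis (40.6) sit by the NBT levels (176 and 40.0).

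Fatty acid synthesis was less uniform, with 3 of 10 genes lower with NBT and a median of -0.20. SCD, the desaturase that makes oleic acid, had 3080 reads in the control, 738 under NBT, 6675 under trametinib and 674 under both, a log2 ratio between the drugs of -3.21. It was the opposite gene of the list. FASN, the fatty acid synthase, had 11279, 5250, 10684 and 3785 reads, so NBT alone set its ratio of -1.06.

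Genes of epithelial differentiation and of WNT signalling were among the named members of the 150 that NBT lowered and trametinib raised. ELF3 (gene ID 1999), an epithelial ETS factor, had 225 reads in the control, 94 under NBT, 3502 under trametinib and 417 under both. Its log2 ratio of NBT over trametinib, -5.25 (interval -5.57 to -4.96), corresponds to a 38-fold higher level with trametinib. WNT10A, a secreted WNT ligand, had 128, 44, 1345 and 244 reads (log2 ratio -4.95). In both genes the combination stayed above control, by 0.83 and 0.87 on the log2 scale, but far below trametinib. KRT15, a keratin of basal epithelium, had 651, 330, 3846 and 102 reads, and here the combination fell past the NBT value to -2.73 from control. ALPP, the placental alkaline phosphatase, had 173, 73, 1585 and 119 reads, with the combination on the NBT side. MUC16, the CA125 mucin, had 34, 13, 126 and 41, and its log2 ratio of -3.26 became -2.50 with deposited TPM values.

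Other keratin genes were raised by trametinib while NBT left them near or modestly below control. KRT17 had 2946 reads in the control, 2420 under NBT, 19093 under trametinib and 4398 under both. KRT16 had 11, 9, 253 and 45 reads, and SERPINB13, a squamous protease inhibitor, had 36, 29, 751 and 313. KRT18, of simple epithelium, went the opposite way, with 41334, 38414, 14162 and 14049 reads, nearly the same level with trametinib and with both drugs. Over the 15 genes for keratins and epithelial junctions, 4 were lower with NBT and 1 higher, with a median of -0.07, so the list as a whole sat near the median of all genes.

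Enzymes, receptors and matrix proteins also stood among the named genes with NBT as the lower side. CYP1A1, a cytochrome P450 induced by the aryl hydrocarbon receptor, had 388 reads in the control, 157 under NBT, 1410 under trametinib and 422 under both. MXRA5, a matrix protein, had 376, 166, 1748 and 213. VSIR, which encodes the immune checkpoint protein VISTA, had 623, 244, 1537 and 416. With both drugs, CYP1A1 was back at control (0.06), and MXRA5 and VSIR were on the NBT side (-0.88 and -0.65). FGD3, of a family of CDC42 activators, had 91, 34, 524 and 117 reads, and CACNG4, a calcium channel subunit, had 64, 19, 221 and 76. VASN, a protein that binds TGF-beta, had 49, 19, 153 and 33, and RBBP8NL had 59, 23, 269 and 13. RBBP8NL with both drugs was at a log2 change of -2.20 from control (interval -3.24 to -1.36). Its change from NBT, -0.81, had an interval of -1.94 to 0.21 that holds 0, so the order of these libraries is not settled. CCN5, a secreted matricellular protein, had 4 reads in the control, 0 under NBT, 111 under trametinib and 3 under both. Against a floor of 3 reads in the NBT library, CCN5 was at least 37.95-fold higher with trametinib than with NBT if the 111 reads are taken without error. The counting interval of its log2 ratio of NBT over trametinib, which allows for error in both libraries, had -4.92 as the end nearest 0. Extreme ratios were also seen in FGF1, a fibroblast growth factor (79, 47, 609 and 77 reads), and RAB26, a GTPase of vesicle traffic (33, 16, 208 and 14 reads).

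UCN2, which encodes the stress peptide urocortin 2, had 67 reads in the control, 31 under NBT, 260 under trametinib and 48 under both. Its promoter is shown as the member with NBT as the lower side whose window held an AP-1 element, in capitals and on the other strand, 102 bases before the start. The RefSeq window on GRCh38.p14 is chr3:48563732-48564031 on the minus strand.
UCN2: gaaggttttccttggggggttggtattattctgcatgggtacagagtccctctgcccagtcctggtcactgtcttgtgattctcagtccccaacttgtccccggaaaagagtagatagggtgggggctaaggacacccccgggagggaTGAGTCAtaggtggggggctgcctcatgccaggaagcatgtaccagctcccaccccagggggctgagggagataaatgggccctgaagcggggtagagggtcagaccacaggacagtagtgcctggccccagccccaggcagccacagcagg
An AP-1 element lay in promoters of opposite genes of either direction, IL1A and UCN2. It was found in 3 of the 36 genes with a window among the 49 (8.33%), in 9 of the 115 with a window among the 150 (7.83%), and in 4.76% of the 9287 tested genes with a window. The ETS element CCGGAAG, searched on both strands, was found in 5.56% and 5.22% of the same gene sets. It was found in 24.1% of the tested genes with a window and in 12.2% of all genes with one. The sterol element TCACNCCAC was in 1 of the 16 cholesterol genes with a window, SREBF2, and in 1.39% of all genes with one. The heat shock pattern GAANNTTC, the E-box CACGTG and the CEBP-ATF element TGATGCAAT were in 8.21%, 8.77% and 0.293% of all genes with a window. These shares describe letters in a short window only.

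Receptors and adhesion genes divided between the drugs. Of 18 receptor tyrosine kinases, 5 were lower with NBT than with trametinib and 2 were higher, with a median of -0.45. Of all tested genes, 4.87% were lower and 3.30% higher. FGFR3 had 211 reads in the control, 99 under NBT, 652 under trametinib and 121 under both, and FGFR2 had 1265, 773, 2416 and 986. Both were opposite genes. ERBB3, a receptor for neuregulins, had 826, 702, 1589 and 1052 reads, and DDR1, a collagen receptor, had 10272, 7708, 17401 and 9427. For these receptors the trametinib library was the highest of the 4 and the combination was no more than modestly above control. EPHA2, an ephrin receptor that is also a MAPK output gene, was the reverse, with 3371, 2413, 268 and 247 reads.

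Among 9 integrins, 4 were higher with NBT and 1 was lower (median 0.76), against 3.30% and 4.87% of all tested genes. The combination lay nearer trametinib in 8 of the 9, against 39.6% of all tested genes. ITGA2, a collagen-binding subunit, had 1090, 1560, 395 and 293 reads, and ITGA6, a laminin-binding subunit, had 6079, 7366, 1993 and 3563. ITGB8, the subunit that activates TGF-beta, was the one lower with NBT and an opposite gene, with 319, 140, 567 and 292. The 11 laminin and basement membrane genes were split evenly, 3 higher and 3 lower. LAMB3, a laminin beta chain, was higher with NBT, at 7266, 8449, 3647 and 5502 reads. LAMA5, HSPG2 and LAMB2 were opposite genes with NBT as the lower side, LAMA5 with 7115, 3087, 11719 and 3258 reads. Of 13 mesenchymal and invasion genes 6 were higher with NBT and 1 lower (median 0.98), among them PLAU, the urokinase gene, with 4196, 4393, 1398 and 862.

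In the interferon response and in antigen presentation, some genes were lower with NBT than with trametinib and none was 2-fold higher. All 11 tested interferon genes had ratios below 0, and 6 of them passed 2-fold. The median of -1.01 ranged from -1.04 to -0.78 over the alternatives and was under 2-fold in 4 of them. IRF9, a subunit of the interferon-activated transcription factor, had 170 reads in the control, 228 under NBT, 514 under trametinib and 352 under both. ISG15, a ubiquitin-like protein, had 215, 193, 423 and 341. For both, the shift from control was larger with trametinib (1.58 and 0.96 on the log2 scale) than with NBT (0.37 and -0.21). Of 12 genes of the MHC class I pathway, 4 were lower with NBT, none was higher and 8 were within 2-fold (median -0.77). The peptide-loading gene TAPBP, with 956, 613, 1725 and 869 reads, and the immunoproteasome gene PSMB9, with 35, 14, 98 and 29, were opposite genes. STING1, a sensor of cytosolic DNA signals, lay in the other direction, as an opposite gene outside these lists chosen after its values were seen, with 189, 305, 38 and 72 reads.

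The study is about cell death and AKT. The lists of death genes and of AKT regulators each held members on both sides. Over all tested genes, 8.17% passed 2-fold in either direction. Of 14 caspase and gasdermin genes, 2 were higher with NBT and 1 was lower (median -0.05). GSDME, the gasdermin that caspase 3 cleaves, had 1351 reads in the control, 1849 under NBT, 898 under trametinib and 1549 under both. Its log2 ratio of 1.00 (interval 0.89 to 1.12) lay at the limit of 2-fold and became 0.97 with TPM, and with both drugs GSDME was 0.13 above control. CASP4, an inflammatory caspase, had 461, 1193, 411 and 843 reads. Of 15 BCL2 family genes, 4 were higher and 2 lower (median 0.02). The survival genes BCL2L1 (2982, 3802, 1311 and 1411 reads) and MCL1 (5732, 7651, 3429 and 5011) were higher with NBT, and so was PMAIP1, which encodes the killer protein NOXA (218, 394, 161 and 343). BMF, another killer protein, was an opposite gene with NBT as the lower side, at 16, 5, 125 and 29 reads, and its log2 ratio of -4.55 became -3.73 with 5 added reads. Of 24 regulators of PI3K and AKT, 1 was higher and 1 lower (median -0.06). AKT1 had 2899, 2866, 2829 and 2431 reads, so the single drugs differed by -0.02 on the log2 scale (interval -0.09 to 0.06). IRS2, an insulin receptor substrate, had 726, 806, 316 and 622, and PIK3R3, a regulatory subunit and an opposite gene, had 71, 37, 118 and 56.

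Genes of the cell cycle differed between the lists. Of 13 genes of G1 phase and CDK inhibitors, 4 were lower with NBT and 1, CCND1, was higher (median -0.42). CDKN2B, an inhibitor of CDK4 and CDK6, had 106, 71, 426 and 253 reads, and CDKN2C had 446, 295, 779 and 408. Both were opposite genes. CDKN1A, the p21 gene, was higher than control with each drug and highest with both, at 550, 958, 1907 and 2294 reads. No gene differed 2-fold among 24 of DNA replication (median -0.20), 22 of mitosis (-0.24) and 20 of ribosome biogenesis (0.39). For DNA replication the combination median was -0.96 from control, below NBT (-0.37) and trametinib (-0.12).

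**Figure D4:**
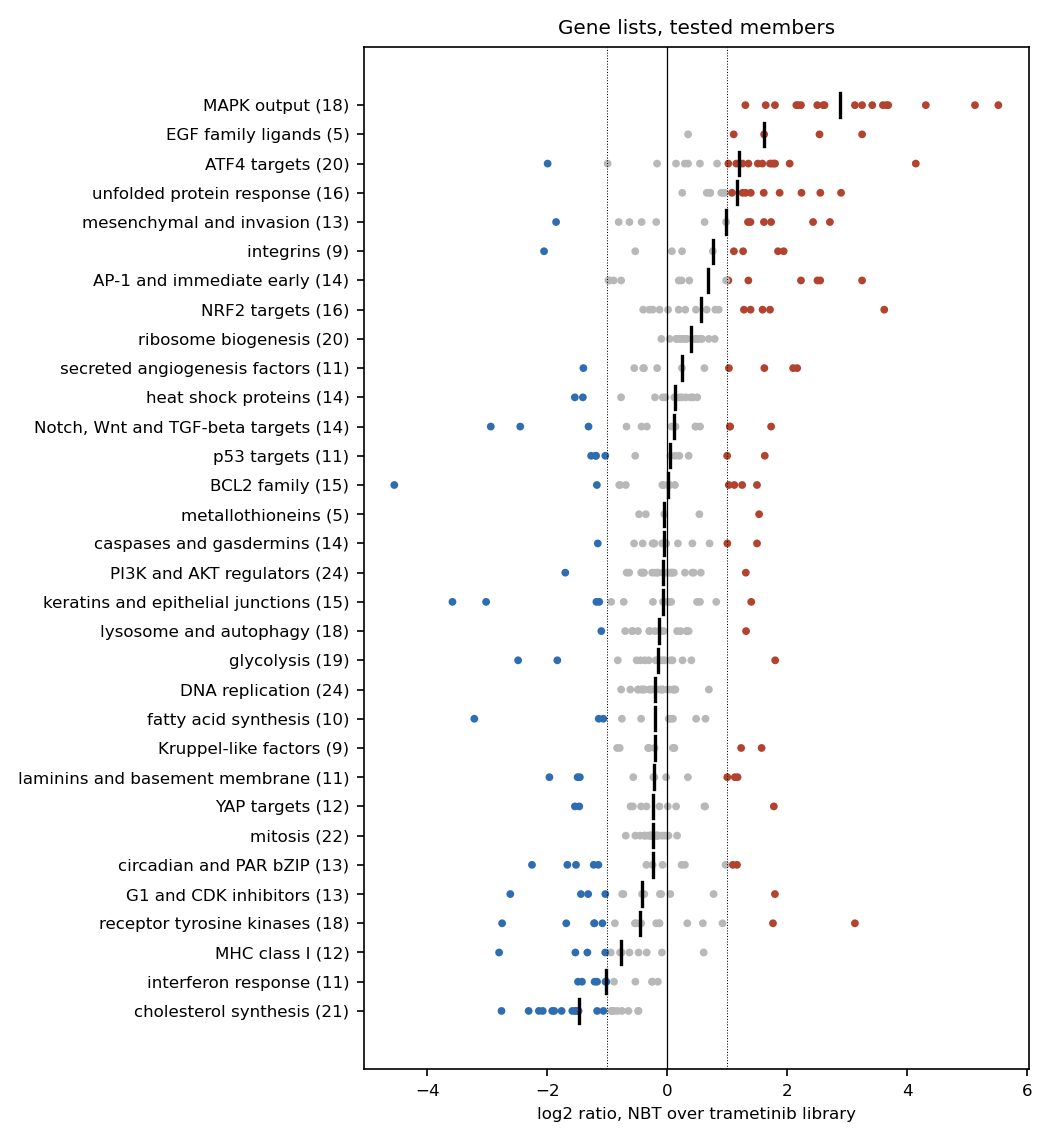
Log2 ratio of the NBT over the trametinib library (x axis) for each tested gene of 32 gene lists (y axis, with the number of tested genes), coloured past 2-fold (dotted lines), with the list median as a black bar. MAPK output (2.88) is at the top and cholesterol synthesis (-1.48) at the bottom, while most medians lie within 0.5 of 0.

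The 11 lists not yet described had medians of NBT over trametinib from -0.24 to 0.68. The AP-1 and immediate early genes were at the upper end with 6 of 14 higher and none lower, EGR1 among them with 802, 479, 99 and 117 reads. The heat shock proteins had none higher and 2 of 14 lower (median 0.13). These were HSPB1, with 4946, 6471, 18316 and 16947 reads, and HSPB8, with 153, 339, 875 and 2445. Of 5 metallothioneins 1 was higher, MT2A, with 144364, 216752, 72969 and 138477. Of 19 glycolysis genes, 1 was higher and 2 lower (median -0.15), with PFKFB4, a regulator of glycolytic flux and an opposite gene, at 237, 146, 798 and 227. Of 11 p53 targets, 2 were higher and 4 lower (0.06), of 12 YAP targets 1 and 2 (-0.23), and of 14 Notch, Wnt and TGF-beta targets 3 and 3 (0.11). ID3, an inhibitor of differentiation factors in the last of these lists, was an opposite gene with 228, 115, 863 and 322 reads. Of 9 Kruppel-like factors 2 were higher and none lower (-0.21), of 18 lysosome and autophagy genes 1 and 1 (-0.13), of 11 secreted angiogenesis factors 4 and 1 (0.25), and of 13 circadian genes 2 and 5 (-0.24).

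To see where the combination stood when the drugs pulled apart, each opposite gene was placed by its combination value. A value was counted as past that of a single drug at any distance beyond it, with no margin for counting error. Of the 49 genes that NBT raised and trametinib lowered, 22 (44.9%) were within 1.5-fold of control with both drugs, against 76.6% of all tested genes. In 12 (24.5%) the combination was at least 1.5-fold from control in the NBT direction, 7 of them past the NBT value, and in 15 (30.6%) it was so in the trametinib direction, 2 of them past the trametinib value. Of all tested genes, 12.5% were so much higher with the combination, the NBT direction here, and 10.9% lower. It lay nearer NBT in 26 of the 49 genes (53.1%) and nearer trametinib in 23, where NBT was the nearer in 60.4% of all tested genes. The tested genes as a whole were not chosen for opposite shifts, so these shares are not of like genes. The set was thus spread over both drugs, with a median combination value of 0.02, where NBT was at 0.81 and trametinib at -1.24.

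The 150 genes that NBT lowered and trametinib raised were less evenly placed. The combination was within 1.5-fold of control in 76 (50.7%), at least 1.5-fold in the NBT direction in 58 (38.7%), of which 26 were past the NBT value, and in the trametinib direction in 16 (10.7%). Of all tested genes, 10.9% were so much lower with the combination, the NBT direction here, and 12.5% higher, the trametinib direction. It lay nearer the NBT value in 124 genes (82.7%), against 60.4% of all tested genes, and in 121 (80.7%) it was at least 2-fold below trametinib. The rule chose these genes for a trametinib value above control, so a combination value near control is below trametinib by that choice. The trametinib shift was the larger in 101 of the 150, and there a value back at control is nearer NBT. The 60.4% is over genes not chosen for opposite shifts. The median was -0.40 with both drugs, -0.87 with NBT and 1.10 with trametinib. The sum of the single-drug log2 values had a median of 0.22, and the combination fell below that sum by a median of 0.60 on the log2 scale. For the 49 genes in the other direction, the combination was above the sum by a median of 0.37. Both single-drug values in the sum were used to choose the genes, and no such median over all tested genes is given. Whether the drugs interact was not tested. Past the NBT value lay, for example, KRT15, SCD and RBBP8NL, and on the trametinib side ELF3, WNT10A and CDKN2B. The interval of combination over NBT was -2.04 to -1.38 for KRT15, but -1.94 to 0.21 for RBBP8NL, which holds 0. SCD lay only slightly past its NBT value.

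**Figure D5:**
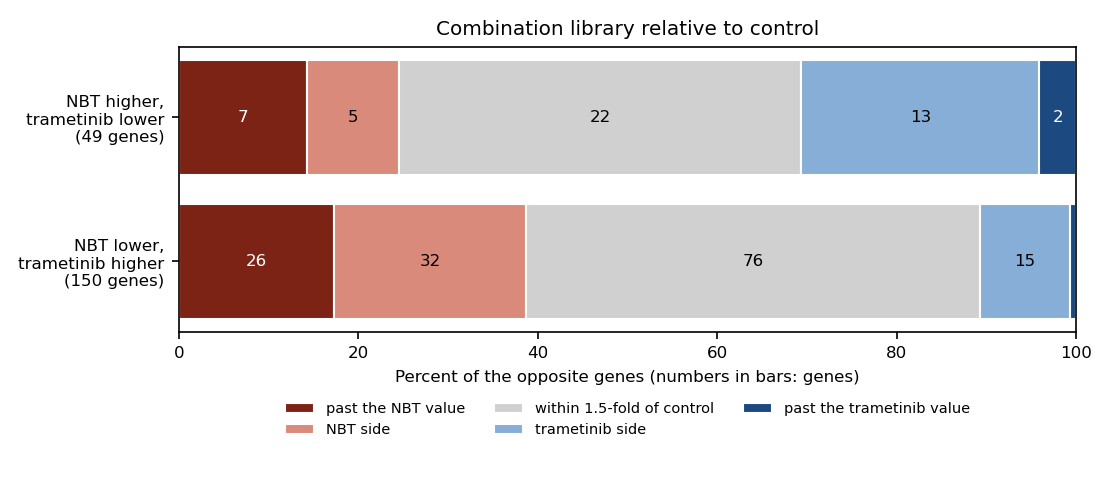
Percent of the 49 and the 150 opposite genes (x axis) by the place of the combination library relative to control, with the number of genes in each bar segment. The segment at the far right of the lower bar is 1 gene past its trametinib value. With the segments past the NBT value included, the NBT direction takes 58 of 150 genes in the lower bar and 12 of 49 in the upper. The trametinib direction, counted likewise, takes 16 and 15.

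Genes on either side of the limits had nearly the same values. Just inside it lay STAMBPL1, a deubiquitinase, with 383 reads in the control, 599 with NBT and 182 with trametinib, at log2 changes of 0.59 and -1.08. Just outside lay ROBO3, a guidance receptor, with 150, 232 and 74 reads, at 0.58 and -1.03. In the other direction GLS2, a glutaminase with 51, 35 and 81 reads, was just inside at -0.59 and 0.65, and IDH1, with 1309, 905 and 2356 reads, just outside at -0.58 and 0.83. Counting intervals of both single-drug changes were clear of 0 in 48 of the 49 genes and in 126 of the 150. At least 2-fold from control with each drug were 12 and 36 genes. The shift with trametinib was larger than that with NBT in 35 of the 49 and 101 of the 150.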

How the data were processed

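RNA from 4 samples was sequenced by the study on the BGISEQ-500 platform. The submitters' processing notes name Bowtie2 2.2.5, RSEM 1.2.8 and build hg38. The authors deposited RSEM estimated counts, TPM and FPKM per gene (16834) and per transcript (70268). The FPKM values deposited were not used. Of the genes, 53.9% had an estimated count that was not whole (tolerance 0.001). Such reads were shared among similar sequences, which leaves paralogs uncertain. Counts were rounded to whole numbers.

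Ratios were computed with 0.5 reads added after scaling to library sums (Python 3.11.15, scipy 1.17.1). Clopper-Pearson intervals and the floor of 3 reads cover counting error only, since no molecular identifiers are named and PCR copies count as reads. The 10 highest genes took 6.45% to 7.17% of each library. No test was made, since each condition has 1 library.

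Named genes were the 12 highest and 12 lowest ratios of NBT over trametinib with at least 200 reads in the higher library, the 15 opposite genes per direction with the largest smaller shift and at least 100 reads, and members of 35 lists (32 pathways, the others checks of the cells). Genes named LOC and read-through genes are counted only. Of 554 list entries, 10 had no match in the table and were not analysed here. Members and lists were chosen with earlier results of these data known. Promoters (250 bases before to 50 after each start) were searched for exact AP-1, CRE, antioxidant, CEBP-ATF (TGATGCAAT), ETS, E-box (CACGTG), heat shock (GAANNTTC) and sterol elements on both strands. Alternatives were TMM factors (edgeR 4.0.16), median-of-ratios factors (DESeq2 1.42.0), TPM with 0.1 added, 5 added reads, transcript sums, other count minimums and larger folds. The scripts were tested on simulated data. Some results are not reported here.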

Additional observations from a re-analysis of the deposited data

How the results depend on the processing

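Each condition has 1 library, so the spread between cultures was not measured and no alternative tests it. No paired analysis was possible because no group has a second replicate. Of 64 counts recomputed under 8 alternatives, 46 stayed within 1.5 times the reported count.

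The other 18 came from other count minimums and folds, which change the genes admitted. With at least 10 counts, 913 genes were lower with NBT, and 81 and 238 genes were opposite with NBT as the higher and the lower side. The combination was 1.5-fold higher than control in 20 and lower in 23 of the 81, and higher in 51 of the 238. With at least 200 counts, 339 genes were lower with NBT and 91 were opposite with NBT as the lower side, with the combination higher in 9 and lower in 38. At 4-fold between the drugs and 2-fold on each side, 88 genes were higher and 120 lower with NBT, and 12 and 36 were opposite. The combination was higher in 3 and lower in 3 of the 12, and higher in 4 and lower in 17 of the 36.

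TMM scaling gave 420 genes higher and 471 lower, and deposited TPM gave 343 and 578. The calls higher with NBT were 40.4% of all calls as reported, 47.1% under TMM and 37.2% with TPM. Of 220 recomputed ratios of the 44 genes named for their size, none changed sign or fell under 2-fold. Of 224 list medians, 9 changed sign, and 4 that were past 2-fold fell under it. The ratios of CCN5, BMF, MUC16 and SH3TC2 moved by over 1.5 times with TPM or 5 added reads, that of CCN5 to -6.23 and -4.55. GSDME fell under 2-fold with TPM.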

Other observations

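Outside the lists, several genes higher with trametinib than with NBT belonged to stratified epithelium, 4 of those below being opposite genes. They were chosen after their values were seen, so their shared direction is a description only. KRT5, a basal keratin, had 24906 reads in the control, 14518 under NBT, 67741 under trametinib and 24441 under both. Its partner KRT14 had 62, 41, 338 and 77 reads. TP63, the transcription factor of basal epithelium, had 1565, 1576, 2863 and 1667, so that it was raised with trametinib and stayed at control with NBT. TRIM29 had 1761, 1376, 5265 and 2702. The kallikrein protease gene KLK5 had 4341, 2892, 7934 and 3260 reads, and COL7A1, which anchors the basement membrane, had 1246, 800, 3255 and 1541. In KRT5, KRT14, KLK5 and COL7A1 the combination was within 1.5-fold of control.

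Some genes of Notch signalling and retinoid metabolism, also chosen after their values were seen, lay on the same side, although the Notch ligand DNER lay on the other and the list of Notch, Wnt and TGF-beta targets had 3 genes higher and 3 lower. The Notch ligand JAG2 had 1549 reads in the control, 852 under NBT, 4042 under trametinib and 903 under both. The ligand DLL1 had 350, 209, 714 and 205 reads, and LFNG, which modifies Notch receptors, had 74, 25, 132 and 15. ALDH1A3, which makes retinoic acid, had 2410, 1295, 5538 and 1379, while the retinoic acid receptor gene RARG had 824, 496, 2450 and 1018. With both drugs JAG2, DLL1, LFNG and ALDH1A3 were near or below their NBT level, and RARG was 0.24 above control on the log2 scale.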
